A study of Mus musculus with 13 samples.

Results

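The 36 genes described here were chosen by symbol from a written list and matched to the GRCm39 annotation, out of 57010 genes in the files. They comprise 4 transporters, 9 enzymes of the preparatory steps of glycolysis, 8 enzymes of the payoff steps including lactate dehydrogenase, 3 regulators of flux, 4 genes of oxygen sensing and 8 other hypoxia targets. All 36 had enough counts to be tested, among 15034 genes tested. Their values were read in bulk RNA of wild-type (WT) mouse embryonic fibroblasts (MEFs), which are primary fibroblasts grown from minced embryos. Control MEFs received vehicle. Senescent MEFs received 2 μM etoposide, a topoisomerase inhibitor that breaks DNA, for 24 h and were then cultured for 5 days. The other groups were senescent MEFs given Fucoidan-FV, a sulfated polysaccharide from Fucus vesiculosus, a brown seaweed, at 100 or 300 μg/mL, with RNA taken after 12 h. The study's methods give 3% oxygen for growing MEFs, and the oxygen level in this RNA-Seq experiment is not given in the sources used here. Each group had mice 4, 5 and 6, and control mouse 5 had a pair of libraries, 5(1) and 5(2), which were summed.

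Glycolysis splits glucose into pyruvate, and in most cultured fibroblasts much of that pyruvate becomes lactate, which monocarboxylate transporters carry out of the cell. Hypoxia-inducible factor (HIF) is a dimer whose alpha subunit, encoded by Hif1a or Epas1, is hydroxylated by the prolyl hydroxylases (Egln genes) and degraded when oxygen is present. When the alpha subunit is stable, it raises transcription of glucose transporters, most glycolytic enzymes, regulators that turn pyruvate away from mitochondria, and genes such as Bnip3 and Ndrg1, so the glycolysis genes and the hypoxia response genes are largely targets of 1 factor. HIF is controlled mainly at the protein level, which RNA does not measure.

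Libraries held 22782536 to 31278750 expected counts. Of 10 fibroblast markers 8 to 10 were above 1 TPM (the level per transcript length that RSEM gives) in each group, and they summed to between 13862 and 15743 TPM in control MEFs, 17869 and 21407 TPM in senescent MEFs, 20802 and 21593 TPM at 100 μg/mL and 21147 and 21979 TPM at 300 μg/mL, so that control MEFs lay below the other groups, while erythroid markers summed to at most 1.20 TPM, and endothelial, epithelial and macrophage markers to at most 9.10 TPM. Of 6 skeletal muscle markers 2 were above 1 TPM, with sums of 202 to 277 TPM in control MEFs, 242 to 315 TPM in senescent MEFs, 134 to 210.1 TPM at 100 μg/mL and 121 to 185 TPM at 300 μg/mL, and Myog was at 0 in senescent MEFs. Of 4 neural markers 2 were above 1 TPM, with sums of 46.5 to 88.5, 43.7 to 48.0, 66.3 to 117 and 67.4 to 97.4 TPM in the same order, and Snap25 was at 0 in the first 3 groups. The part of these markers in the results was not tested. Cdkn1a and Cdkn2a, the cell cycle inhibitors p21 and p16, rose in senescent against control MEFs, with log2 fold changes of 1.82 and 2.46 (adjusted p = 6.79e-05 and 7.24e-05), in 3 of 3 mice. In bulk RNA, fewer cells of a type and less RNA per cell cannot be told apart.

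The values of several members followed the library as well as the group. Genes whose sequence lies in 1 annotated transcript moved together from library to library within groups. For 1344 genes with over 95% such sequence, the median deviation of a library from the mean of all libraries ran from −1.52 (control mouse 6) to 1.13 (100 μg/mL, mouse 5) on the log2 scale, and libraries 5(1) and 5(2) of the same control mouse stood at −1.24 and 0.79. For 8280 genes with less than 50% such sequence the range was −0.15 to 0.22. Among the members, Slc16a1, Egln1, Egln3 and Ddit4 had 100% such sequence, Epas1 95.1% and Adm 91.6%, and their log2 CPM (library-scaled counts) followed the library's deviation, with Pearson's r over the 13 libraries of 0.98 for Egln1, 0.95 for Ddit4, 0.92 for Egln3, 0.89 for Adm, 0.84 for Epas1 and 0.66 for Slc16a1. Pfkl (r = 0.87) and Pgam1 (r = 0.78) followed it too. These r are a description, since the libraries share their groups and the members share the deviation. Hif1a, with 16.1% such sequence, had an r of −0.02. The plot of 6 members against this deviation shows both kinds of gene.

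**Figure D1:**
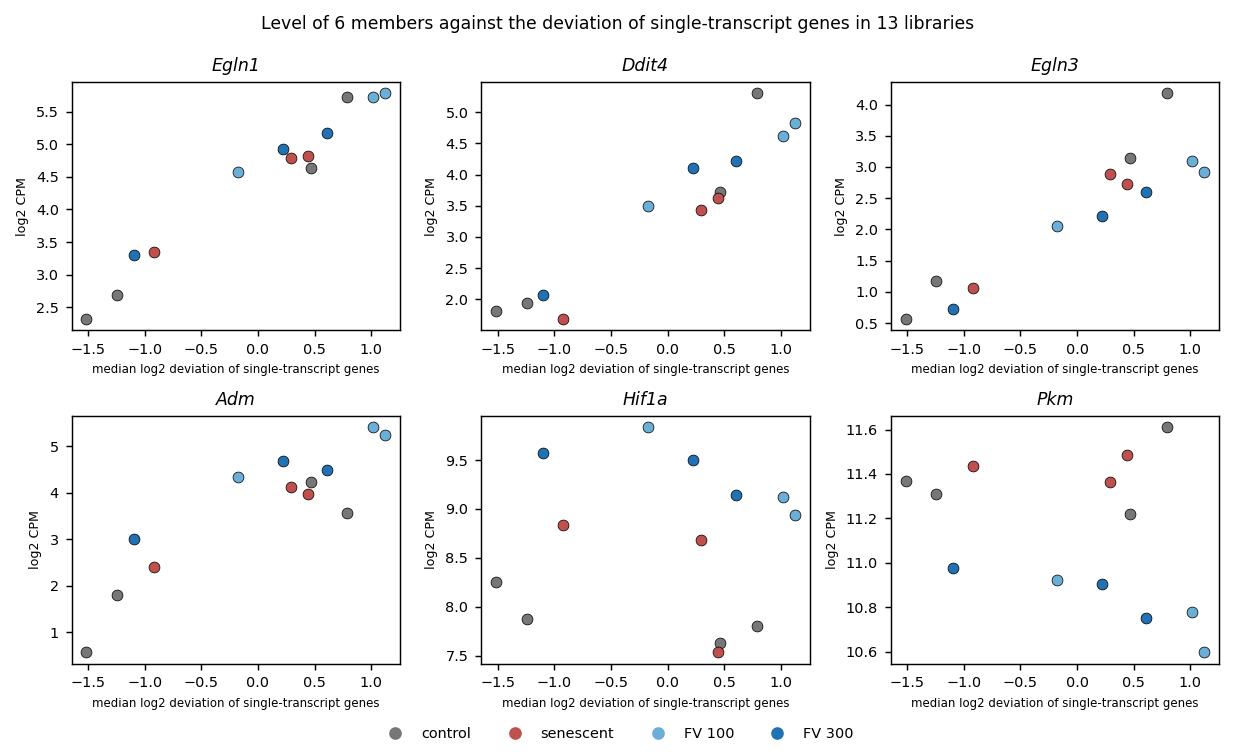
Each point is 1 of 13 libraries, coloured by group (FV 100 and FV 300 are 100 and 300 μg/mL Fucoidan-FV), with the median log2 deviation of the 1344 genes whose sequence lies over 95% in 1 transcript on the x axis and the log2 CPM of a member on the y axis. Egln1, Ddit4, Egln3 and Adm climb with the deviation whatever the group (r = 0.98, 0.95, 0.92 and 0.89), while Hif1a (r = −0.02) and Pkm (r = −0.35) do not follow it.

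Promoter sequence was examined because the members are largely, though not all, known as targets of 1 factor. RefSeq windows of 300 bases, 250 before and 50 after the start of transcription (table of build GRCm38.p6, first window listed for each gene), were matched for 33 of the 36 members, the exceptions being Slc2a3, Epas1 and Ndrg1, and each of the 33 was found by exact match in GRCm39. Both strands were searched for ACGTG and GCGTG, the core of the hypoxia response element. ACGTG also lies inside CACGTG, the E-box that MYC and other factors bind. At least 1 core was present in 27 of 33 members (81.8%), against 43.8% of 27025 genes with such a window. The members' windows were also richer in G and C, with a median of 64.7% against 52.7%, and a comparison at equal GC content was not made. At least 3 separate cores were found in 8 of 33 members (24.2%) against 6.7% of all. Ldha held 5 separate cores, 2 of them within CACGTG. Hk1, Gpi1, Aldoa, Tpi1, Eno2 and Pkm held none in this window. A match is a description of letters and not a bound site.
The stretches before the start of 6 members whose RNA the results below turn on are shown here so that these letters can be seen: Slc2a1 and Ldha, which fell at 100 μg/mL, Pfkm, Bnip3 and Ankrd37, which rose with senescence, and Hif1a. Each is the longest part of the 250 bases that no annotated exon covers, on the gene's own strand, with cores in capitals (CACGT and CACGC are cores read from the other strand). In GRCm39, Slc2a1 lies at chr4:118965692-118965907 (plus strand), Ldha at chr7:46494978-46495131 (plus), Pfkm at chr15:97990220-97990450 (plus), Hif1a at chr12:73954391-73954569 (plus), Bnip3 at chr7:138511254-138511412 (minus) and Ankrd37 at chr8:46452912-46453137 (minus).
Slc2a1: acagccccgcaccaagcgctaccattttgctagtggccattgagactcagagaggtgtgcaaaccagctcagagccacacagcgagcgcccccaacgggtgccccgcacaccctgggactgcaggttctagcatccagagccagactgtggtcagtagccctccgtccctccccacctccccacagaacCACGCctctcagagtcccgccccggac
Ldha: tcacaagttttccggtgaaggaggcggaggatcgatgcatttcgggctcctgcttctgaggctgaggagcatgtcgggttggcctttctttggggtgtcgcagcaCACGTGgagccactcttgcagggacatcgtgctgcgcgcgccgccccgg
Pfkm: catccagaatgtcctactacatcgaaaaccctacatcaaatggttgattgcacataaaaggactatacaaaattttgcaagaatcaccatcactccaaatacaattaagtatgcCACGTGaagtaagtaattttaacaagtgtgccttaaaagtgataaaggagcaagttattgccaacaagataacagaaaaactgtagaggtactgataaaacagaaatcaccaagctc
Hif1a: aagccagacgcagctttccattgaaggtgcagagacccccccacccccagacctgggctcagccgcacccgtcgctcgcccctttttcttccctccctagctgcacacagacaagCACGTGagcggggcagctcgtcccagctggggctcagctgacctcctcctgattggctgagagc
Bnip3: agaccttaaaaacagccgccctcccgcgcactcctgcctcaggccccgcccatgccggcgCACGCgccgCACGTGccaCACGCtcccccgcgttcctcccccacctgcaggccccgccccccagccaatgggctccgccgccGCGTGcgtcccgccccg
Ankrd37: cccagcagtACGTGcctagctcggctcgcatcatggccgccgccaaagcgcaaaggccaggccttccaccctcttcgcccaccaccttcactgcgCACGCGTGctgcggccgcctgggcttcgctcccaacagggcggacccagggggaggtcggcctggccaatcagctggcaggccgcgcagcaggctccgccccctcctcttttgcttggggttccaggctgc
Pfkm and Hif1a each show 1 CACGTG, Bnip3 shows 4 separate cores, and Ankrd37 shows 2, of which 1 is an overlap of cores on opposite strands.

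With senescence 5 of the 36 members passed the test, a share close to that of all genes. Ldhb, Pfkm, Bnip3 and Ankrd37 rose and Slc16a3 fell, whereas 31 members did not pass the test. The 5 members are 13.9% of 36, beside 11.7% of all genes tested (6.11% higher and 5.63% lower). The median log2 fold change was 0.09 over the members and 0.07 over all genes. By the stricter rule of the study, which adds an absolute log2 fold change over 1, Ldhb and Ankrd37 were called, both higher, beside 8.42% of all genes (4.47% higher and 3.95% lower).

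Slc16a3 encodes MCT4, a proton-linked transporter that exports lactate from glycolytic cells (chr11:120838846-120851694, plus strand). It stood at 435, 551 and 568 CPM in control mice 4, 5 and 6 and at 282, 231 and 329 CPM in senescent mice 4, 5 and 6. Every senescent sample was below every control sample. The means were 518 ± 72.5 and 281 ± 48.8 CPM (SD, n = 3), and the log2 fold change was −0.89 (SE 0.21, adjusted p = 0.0146 by edgeR's quasi-likelihood test). The call held in 18 of 18 alternative analyses. In these the scaling, filter, tool, control libraries, block or length offset was changed, or 1 sample of either group was left out. The 18 include an offset for the share of sequence in 1 transcript, alone and with the mouse as a block, chosen after seeing the data. Exons of Ccdc57 and Csnk1d on the opposite strand overlap 44.1% of the exonic sequence of Slc16a3. Slc16a1 (MCT1) differed by −2.08 (SE 0.73, adjusted p = 0.0847) at 8.02 ± 6.34 against 1.88 ± 1.18 CPM and belongs to the genes that follow the library. The glucose transporters Slc2a1 (GLUT1) and Slc2a3 (GLUT3) differed by 0.19 and 0.30 (adjusted p = 0.498 and 0.70).

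Ldhb encodes the heart-type subunit of lactate dehydrogenase, which favours the step from lactate to pyruvate (chr6:142435672-142454586, minus strand). Control mice had 15.7, 14.7 and 5.50 CPM, and senescent mice had 38.9, 40.7 and 33.8 CPM. The groups did not overlap, and the means of 11.95 ± 5.61 and 37.8 ± 3.53 CPM differed by 1.66 on the log2 scale (SE 0.33, adjusted p = 0.00504), which passed in 18 of 18 alternatives. Ldhb shares 28.9% of its sequence with other annotated genes, so reads may be divided among them. Ldha, the main subunit, was at 2281 ± 284 and 1999 ± 194 CPM (log2 fold change −0.19, adjusted p = 0.606).
Pfkm encodes the muscle-type phosphofructokinase, 1 of 3 genes for the committed step of glycolysis (chr15:97990451-98031417, plus strand). It had 35.95, 41.7 and 36.3 CPM in control mice and 66.9, 74.1 and 68.4 CPM in senescent mice, again without overlap. The log2 fold change was 0.88 (SE 0.20, adjusted p = 0.0109), and it passed in 18 of 18 alternatives. The muscle markers given above had overlapping sums in these 2 groups, and their part in the Pfkm values was not tested. Its partners Pfkl and Pfkp differed by 0.09 and 0.10 (adjusted p = 0.904 and 0.802).

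Bnip3, which encodes a mitochondrial protein that marks mitochondria for mitophagy (chr7:138490690-138511253, minus strand), had 29.5, 52.9 and 27.7 CPM in control mice and 87.4, 69.2 and 48.6 CPM in senescent mice. The ranges overlapped, since control mouse 5 exceeded senescent mouse 6, though each senescent sample was above the control sample of the same mouse. The log2 fold change was 0.90 (SE 0.27, adjusted p = 0.0451). Of the sequence of Bnip3, 27.7% is also found in other annotated genes. The order within mouse 5 rests on the sum of libraries 5(1) and 5(2), which stood apart at 21.3 and 83.4 CPM. Scaled by library, 5(2) was above the senescent sample of mouse 5 (log2 CPM 6.44 against 6.11). With library 5(2) alone for control mouse 5, Bnip3 did not pass. Ankrd37, an ankyrin repeat gene known as a HIF target (chr8:46449939-46458744, minus strand), had 2.85, 3.97 and 0.940 CPM in control mice and 8.24, 8.88 and 7.17 CPM in senescent mice, without overlap and with a log2 fold change of 1.63 (SE 0.49) at an adjusted p of 0.0462. Exons of Lrp2bp and Ufsp2 on the opposite strand cover 81.4% of its exonic sequence, and no source used here names the strand setting of the counts. The r with the library deviation was 0.49 for Bnip3 and 0.50 for Ankrd37. Bnip3 was called in 10 and Ankrd37 in 8 of 18 alternatives. With the mouse as a block they no longer passed (adjusted p = 0.061 and 0.0751). Without control mouse 4 or 6, or without senescent mouse 4 or 5, the adjusted p was 0.0887 to 0.184 for Bnip3 and 0.0674 to 0.104 for Ankrd37.

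Among the abundant enzymes, senescent and control MEFs were close. Gapdh, which oxidises glyceraldehyde 3-phosphate, was at 4734 ± 512 and 4752 ± 1276 CPM (log2 fold change 0.01, SE 0.22), and Pkm (pyruvate kinase), Eno1 (enolase), Pgk1 and Aldoa (aldolase) differed by 0.07, −0.13, −0.10 and 0.04. Gpi1, Tpi1 and Pgam1 differed by 0.06, 0.16 and −0.03, with adjusted p-values of 0.707 to 0.946. Hk1 and Hk2, the hexokinases, differed in opposite directions by 0.50 (SE 0.18, adjusted p = 0.0998) and −0.49 (SE 0.22, adjusted p = 0.178). Eno2, the neuronal enolase, was at 5.48 ± 2.99 and 13.8 ± 5.11 CPM without overlap (log2 fold change 1.33, SE 0.43, adjusted p = 0.0613), and it passed with the mouse as a block. Sums of the neural markers overlapped between these groups, and their part in the Eno2 values was not tested. Aldoc, the brain-type aldolase, was at 1.31 ± 0.652 and 0.581 ± 0.701 CPM, with 52 counts over the 3 senescent samples.

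Hif1a, the alpha subunit of HIF-1, varied widely among senescent MEFs. It had 198, 235 and 306 CPM in control mice 4, 5 and 6 and 412, 459 and 186 CPM in senescent mice 4, 5 and 6, so that senescent mouse 6 lay below every control sample (log2 fold change 0.52, SE 0.32, adjusted p = 0.352). Pfkfb3, which makes the activator of phosphofructokinase, showed the same layout with 125, 129 and 39 CPM in senescent mice against 44.5, 71.5 and 45.8 CPM in control mice. Senescent mouse 6 was also lowest in its group for Pdk1, Kdm3a, Hk1, Hk2 and Bnip3 and highest for Gapdh and Eno2, and its Spearman correlations with senescent mice 4 and 5 over all genes tested, 0.953 and 0.932, were below the 0.971 between those mice. Without it, Hif1a passed (log2 fold change 0.82, adjusted p = 0.0224), and 9 members were called, 8 higher (Hk1, Pfkm, Ldhb, Pfkfb3, Hif1a, Bnip3, Ankrd37, Kdm3a) and 1 lower (Slc16a3). Calls over all genes rose as well without it, from 918 higher and 847 lower of 15034 genes tested to 1423 higher and 1261 lower of 15489. The other groups also held a sample less like the rest by Spearman correlation. In control MEFs it was mouse 6 (0.948 and 0.962 against 0.986). At 100 μg/mL it was mouse 6 (0.964 and 0.966 against 0.992), and at 300 μg/mL mouse 4 (0.958 and 0.965 against 0.984). What sets these samples apart was not tested.

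**Figure D2:**
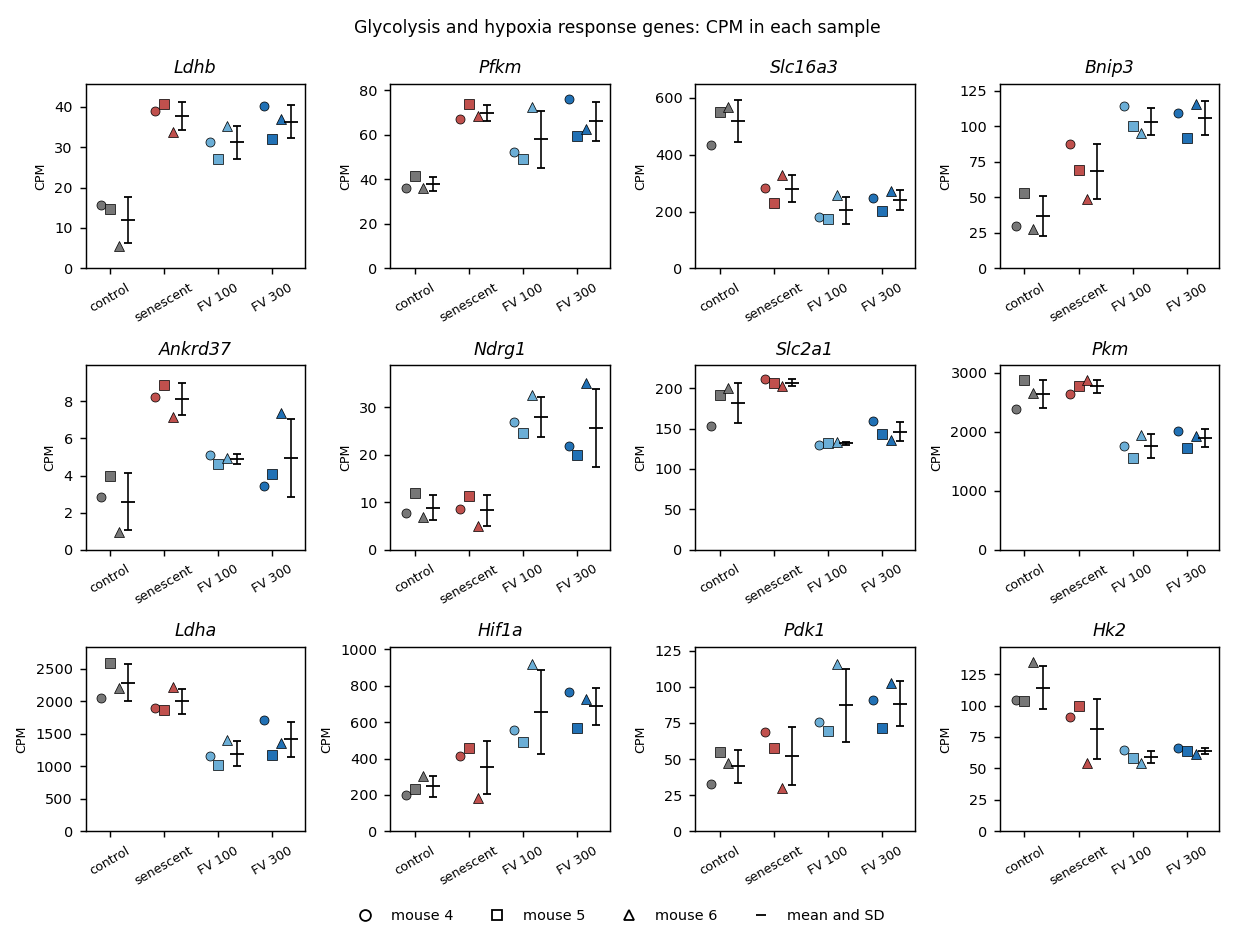
CPM (y axis, from 0, a scale of its own for each gene) of 12 members in control MEFs, senescent MEFs and senescent MEFs given 100 or 300 μg/mL Fucoidan-FV (FV 100, FV 300). Symbols are mice 4, 5 and 6, and the bar beside each group is the mean with the SD (n = 3). Ldhb, Pfkm and Slc16a3 separate control from the other groups, Slc2a1, Pkm and Ldha are lower and Ndrg1 is higher in the 3 samples at 100 μg/mL than in senescent MEFs, and Hif1a, Pdk1 and Bnip3 are highest in treated MEFs.

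Fucoidan-FV at 100 μg/mL was accompanied by lower glucose transporter, pyruvate kinase and lactate dehydrogenase RNA and by higher Ndrg1 than in untreated senescent MEFs. Slc2a1, Pkm and Ldha fell and Ndrg1 rose, which is 4 of 36 members (11.1%), beside 4.02% of all genes tested (1.14% higher and 2.89% lower). Of the preparatory genes 7 of 9, none of them called, and of the payoff genes 7 of 8, Pkm and Ldha among them, had a log2 fold change below 0, with medians of −0.40 and −0.53, while the median over all genes was −0.02. Of the oxygen sensing genes 4 of 4, and of the other hypoxia targets 6 of 8, were above 0, with medians of 0.95 and 0.89. Over the 18 alternatives these medians ran from 0.53 to 1.29 and from 0.68 to 1.22. Epas1, Egln1, Egln3, Ddit4 and Adm, which are among these genes, follow the library deviation, and the libraries of mice 4, 5 and 6 stood at 1.02, 1.13 and −0.18 at 100 μg/mL against 0.29, −0.92 and 0.44 in senescent MEFs. The 18 include the offset for the share of sequence in 1 transcript, chosen after seeing the data, and both medians were above 0 in all 18. Beyond this offset, the part of that deviation in these medians was not tested. By the study's stricter rule Ndrg1 alone was called, beside 2.69% of all genes (1.1% higher and 1.6% lower).

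Slc2a1 encodes GLUT1, the main glucose importer of fibroblasts (chr4:118965908-118996365, plus strand). It had 211, 206 and 203 CPM in senescent mice 4, 5 and 6 and 130.2, 132 and 134 CPM in the same mice at 100 μg/mL. The samples within each group were nearly equal and the groups did not overlap, with means of 207 ± 4.05 and 132 ± 1.83 CPM, and the log2 fold change was −0.65 (SE 0.15, adjusted p = 0.0355).
Pkm encodes pyruvate kinase, the last step of glycolysis (chr9:59563364-59586663, plus strand). It had 2643, 2779 and 2870.4 CPM in senescent mice and 1761, 1553 and 1949 CPM at 100 μg/mL, and the log2 fold change was −0.66 (SE 0.16, adjusted p = 0.0414). Of its sequence, 34.6% is also found in other annotated genes.
Ldha encodes the subunit that turns pyruvate into lactate (chr7:46490899-46505061, plus strand). It had 1903, 1871 and 2221 CPM in senescent mice and 1163, 1019 and 1396 CPM at 100 μg/mL, and the log2 fold change was −0.74 (SE 0.19, adjusted p = 0.0482). In all 3 genes every treated sample was below every senescent sample.

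These 3 calls lie near the threshold, and without any 1 of the 100 μg/mL samples no member was called. With the mouse as a block the adjusted p was 0.0624 for Slc2a1, 0.0613 for Pkm and 0.0699 for Ldha, while the log2 fold changes of −0.65, −0.66 and −0.75 hardly moved. Leaving out any 1 sample of the compared groups gave an adjusted p of 0.0774 to 0.152 for Slc2a1, 0.0493 to 0.189 for Pkm and 0.0583 to 0.212 for Ldha. In an analysis that corrects for the structure-dependent library deviation, chosen after seeing the data, all 3 passed (adjusted p = 0.0301, 0.0243 and 0.0243), but with the mouse block added Slc2a1 did not (adjusted p = 0.0528). Slc2a1 and Ldha were called in 6 and Pkm in 8 of the 18 alternatives, and none of the 3 with RLE factors, the library scaling of DESeq2, or in a fit of these groups alone. On the TPM scale the median log2 difference over all genes tested was 0.34 between these groups. Relative to that median, the log2 differences were −0.56 for Slc2a1, −0.58 for Pkm and −0.62 for Ldha. The unadjusted TPM means of Slc2a1, 112 ± 17.3 and 95.2 ± 8.58, and of Pkm, 2009 ± 275 and 1699.5 ± 109, overlapped between samples, and those of Ldha, 2128 ± 168 and 1749 ± 104, did not. These decreases are thus stated relative to the other genes of the library.

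Ndrg1, a stress-responsive gene induced in hypoxia and during growth arrest (chr15:66801166-66841835, minus strand), was the member that rose at either dose. It had 8.56, 11.4 and 4.93 CPM in senescent mice 4, 5 and 6, 26.8, 24.5 and 32.5 CPM at 100 μg/mL and 21.7, 20.0 and 35.05 CPM at 300 μg/mL. Treated and untreated samples did not overlap at either dose. The log2 fold changes were 1.75 (SE 0.35, adjusted p = 0.0164) and 1.63 (SE 0.35, adjusted p = 0.0326). With the mouse as a block the adjusted p was 0.0346 at 100 μg/mL and 0.0637 at 300 μg/mL. Without any 1 of the treated mice it was 0.0506 to 0.0592 at 100 μg/mL and 0.0607 to 0.192 at 300 μg/mL, the last without mouse 6. Its control level of 8.86 ± 2.61 CPM was close to that of senescent MEFs on the CPM scale (log2 fold change −0.10, SE 0.35). On the TPM scale it was 16.6 ± 14.3 in control and 6.94 ± 2.45 in senescent MEFs, with overlap. Over the 18 alternatives the log2 fold change of senescent against control MEFs ran from −1.25 to 0.17, and none was called. With an offset for effective transcript length the adjusted p of the 2 doses against senescent MEFs was 0.125 and 0.0696.

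At 300 μg/mL, Ndrg1 was the only member that passed the test against senescent MEFs, which is 2.78% of 36 beside 1.90% of all genes (0.778% higher and 1.12% lower). It also passed the stricter rule, beside 1.64% of all genes (0.752% higher and 0.885% lower). Slc2a1 was at 159, 144 and 136 CPM (log2 fold change −0.50, adjusted p = 0.121), Pkm at 2017, 1729 and 1922 CPM (−0.55, adjusted p = 0.106) and Ldha at 1707, 1173 and 1359 CPM (−0.50, adjusted p = 0.222). In each of the 3 genes the samples lay below the senescent samples. The medians of the preparatory and payoff enzymes were −0.21 and −0.34, with 7 of 9 and 7 of 8 below 0. Those of oxygen sensing and hypoxia target genes were 0.54 and 0.58, with 3 of 4 and 7 of 8 above 0. The median over all genes was 0.0003. Epas1, Egln1, Egln3, Ddit4 and Adm follow the library deviation here too. The 300 μg/mL libraries of mice 4, 5 and 6 stood at −1.10, 0.61 and 0.22. Beyond the offset among the alternatives, the part of that deviation was not tested. The doses themselves were not told apart: between 300 and 100 μg/mL no member passed the test by edgeR or by DESeq2, none had an unadjusted p under 0.05, 1 of all 15034 genes (0.00665%) passed by edgeR, and the differences were 0.15 for Slc2a1 (SE 0.15), 0.11 for Pkm (SE 0.16), 0.24 for Ldha (SE 0.19) and −0.13 for Ndrg1 (SE 0.34). Leaving out any 1 of the 300 μg/mL samples, or senescent mouse 4 or 6, left no member called against senescent MEFs.

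**Figure D3:**
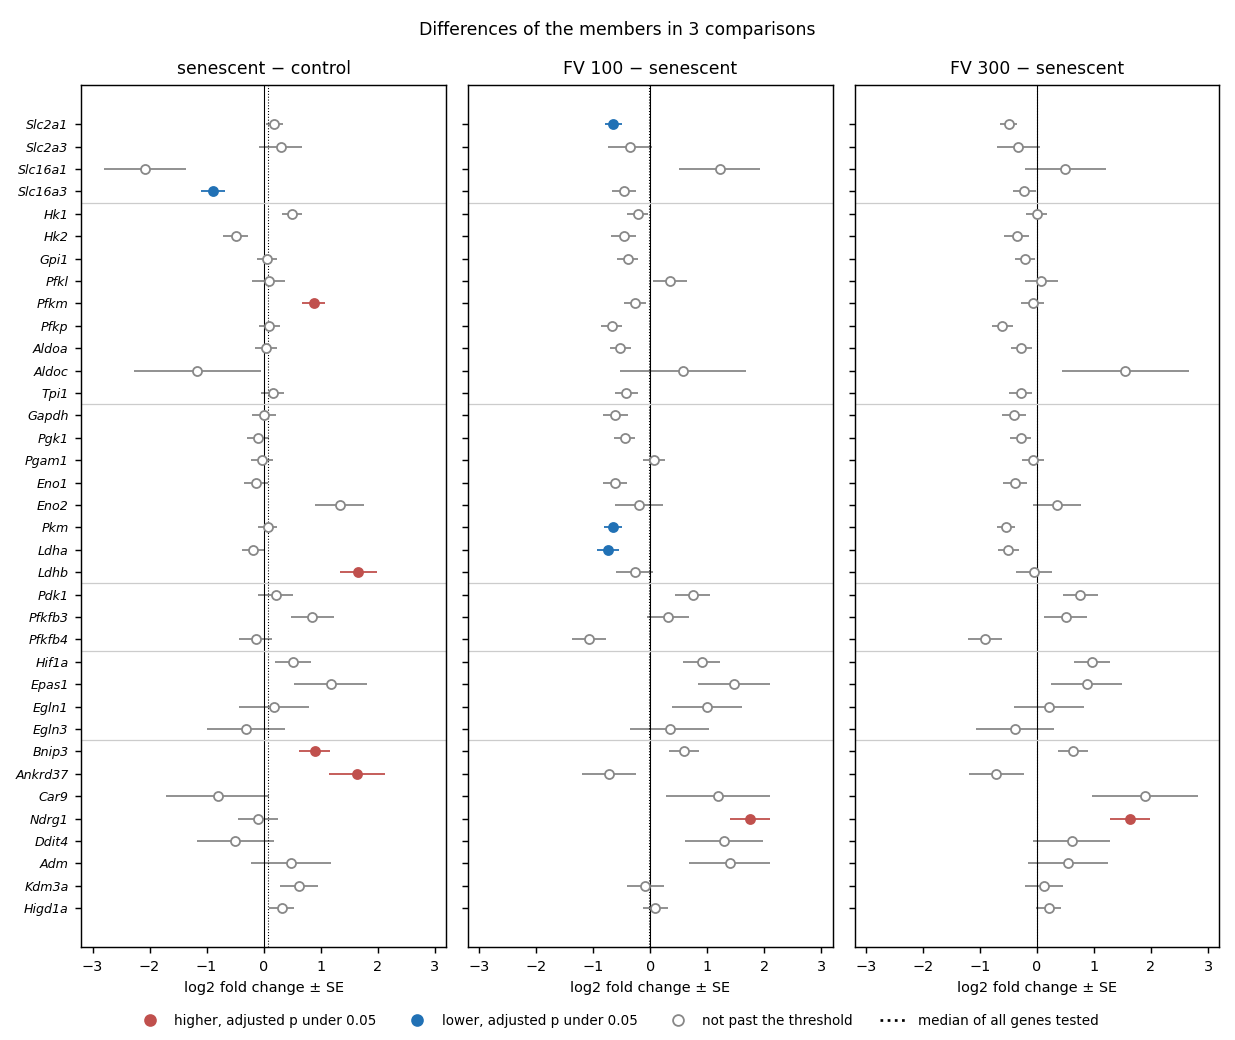
Log2 fold change with its SE (x axis) of the 36 members (y axis, ordered as transporters, preparatory enzymes, payoff enzymes with lactate dehydrogenase, flux regulators, oxygen sensing genes and hypoxia targets, with lines between) in senescent against control MEFs and in each dose of Fucoidan-FV (FV 100, FV 300) against senescent MEFs. Filled points have an adjusted p under 0.05 (red higher, blue lower): 5, 4 and 1 members, and in the treated groups enzymes lie mostly left and oxygen sensing and hypoxia genes mostly right of 0.

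Hif1a RNA was higher in all treated than in all senescent samples, yet not past the test. It had 557, 493 and 919 CPM in mice 4, 5 and 6 at 100 μg/mL and 764, 569 and 725 CPM at 300 μg/mL, against 412, 459 and 186 CPM in senescent MEFs. The log2 fold changes were 0.90 (SE 0.32, adjusted p = 0.138) and 0.96 (SE 0.32, adjusted p = 0.154). Senescent mouse 6 enters here as well, and without it they were 0.71 and 0.70 (adjusted p = 0.14 and 0.171). Pdk1, whose kinase shuts pyruvate out of the mitochondrial oxidation step, was laid out alike, at 52.1 ± 19.9 CPM in senescent MEFs, 87.2 ± 25.2 CPM at 100 μg/mL and 88.4 ± 15.4 CPM at 300 μg/mL (log2 fold changes 0.74 and 0.76, adjusted p = 0.2 and 0.249), and so was Bnip3 at 68.4 ± 19.4, 103 ± 9.79 and 106 ± 12.1 CPM (0.60 and 0.63, adjusted p = 0.233 and 0.273). Pfkfb4, another kinase that sets the activator of phosphofructokinase, was lower, at 14.2 ± 0.189, 6.72 ± 1.20 and 7.57 ± 2.26 CPM (−1.08 and −0.91, adjusted p = 0.0573 and 0.142), with no overlap at either dose.

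Of the remaining members of oxygen sensing and hypoxia response, all but Kdm3a and Higd1a were read at low or library-dependent levels. Epas1 (HIF-2 alpha) was at 4.11 ± 1.47 CPM in senescent MEFs and 11.4 ± 5.37 and 7.52 ± 4.19 CPM at 100 and 300 μg/mL. Egln1 and Egln3, which hydroxylate HIF alpha, Ddit4, an inhibitor of mTORC1, and Adm, the vasodilator adrenomedullin, had SEs of 0.61 to 0.71 in these comparisons, and none passed. For these 5 genes the value of a sample tracked its library: at 100 μg/mL, Egln1 was at 52.8, 55.1 and 23.9 CPM in mice 4, 5 and 6, and in control mouse 5 it was at 5.96 CPM in library 5(1) and 51.0 CPM in library 5(2). Car9, carbonic anhydrase 9 and a sensitive hypoxia marker, was at 0.948 ± 0.473 CPM in senescent MEFs, 2.18 ± 0.158 CPM at 100 μg/mL and 3.56 ± 1.39 CPM at 300 μg/mL. No treated sample overlapped the senescent ones in Car9, with log2 fold changes of 1.19 and 1.90 (adjusted p = 0.513 and 0.353) at 83 counts over the 3 senescent samples. Kdm3a, a histone demethylase, and Higd1a, a mitochondrial protein, differed by −0.08 and 0.09 at 100 μg/mL and by 0.12 and 0.21 at 300 μg/mL.

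Against control MEFs, treated senescent MEFs differed in many members, with enzymes and lactate export among the lower and HIF alpha genes, Bnip3, Ndrg1 and Pdk1 among the higher ones. These comparisons share their treated or control samples with those above, so their values are given side by side and not as independent evidence. At 100 μg/mL 17 of 36 members passed (47.2%), beside 26.6% of all genes tested: 8 higher, beside 12.2% (Pfkm, Ldhb, Pdk1, Pfkfb3, Hif1a, Epas1, Bnip3 and Ndrg1), and 9 lower, beside 14.4% (Slc2a1, Slc16a3, Hk2, Pfkp, Pgk1, Eno1, Pkm, Ldha and Pfkfb4). At 300 μg/mL 14 passed (38.9%), beside 24.4%: 9 higher, beside 12.4% (Pfkm, Eno2, Ldhb, Pdk1, Pfkfb3, Hif1a, Epas1, Bnip3 and Ndrg1), and 5 lower, beside 12% (Slc16a3, Hk2, Pkm, Ldha and Pfkfb4). By the stricter rule 8 members were called at 100 μg/mL, 6 higher and 2 lower, beside 19.6% of all genes (10.3% higher and 9.38% lower), and 9 at 300 μg/mL, 7 higher and 2 lower, beside 18% (9.87% and 8.11%). Gapdh, Aldoa, Tpi1, Gpi1, Pgam1, Hk1, Pfkl, Slc2a3 and Aldoc passed in neither. With the mouse as a block 14 and 12 members passed, without Slc2a1, Pfkm, Pgk1, Pdk1 and Pfkfb3 at 100 μg/mL (adjusted p = 0.0514 to 0.0649), where Eno2 and Gapdh then passed, and without Pkm and Pdk1 at 300 μg/mL (adjusted p = 0.0595 and 0.064). Without mouse 4 of the 100 μg/mL group 9 passed, and without mouse 6 of the 300 μg/mL group 7.

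Hif1a was at 246 ± 55.0 CPM in control MEFs, 657 ± 229.7 CPM at 100 μg/mL and 686 ± 103 CPM at 300 μg/mL, 2.67-fold and 2.79-fold above control (log2 fold changes 1.41, SE 0.33, adjusted p = 0.00601, and 1.48, SE 0.33, adjusted p = 0.00506). The groups did not overlap, and the call held in 18 of 18 alternatives at each dose. Bnip3 was 2.81-fold and 2.87-fold above control (adjusted p = 0.00138 and 0.00128), also in 18 of 18. Slc16a3, which had fallen with senescence, stood at 182, 172 and 257 CPM at 100 μg/mL and 246, 204 and 272 CPM at 300 μg/mL, against 435, 551 and 568 CPM in control mice (log2 fold changes −1.35 and −1.11, adjusted p = 0.000475 and 0.00188, 18 of 18). Relative to senescent MEFs its log2 fold changes were −0.46 and −0.22 (adjusted p = 0.234 and 0.689). Ldhb, which had risen, was at 31.2 ± 4.06 and 36.3 ± 4.09 CPM and did not differ from senescent MEFs beyond its SE (log2 fold changes −0.28 and −0.06, SE 0.32 in each).
Hk2, the inducible hexokinase that binds mitochondria, was at 105, 104 and 134 CPM in control mice, 64.4, 57.9 and 54.7 CPM at 100 μg/mL and 66.0, 63.6 and 61.4 CPM at 300 μg/mL. Its log2 fold changes against control were −0.95 and −0.84 (adjusted p = 0.00607 and 0.013). Ldha fell below control by 0.94 and by 0.69 on the log2 scale at 100 and 300 μg/mL (adjusted p = 0.00316 and 0.0189). Slc2a1 passed at 100 μg/mL alone (log2 fold change −0.46, adjusted p = 0.0393), was called in 4 of 18 alternatives, and had equal TPM means, 94.9 ± 11.4 in control MEFs and 95.2 ± 8.58 at 100 μg/mL. Ndrg1 was called in 17 of 18 alternatives at each dose, the exception being the effective-length offset (adjusted p = 0.566 and 0.207). Against control the median log2 difference in TPM over all genes tested was 0.42 and 0.32. The median log2 differences of the payoff enzymes were −0.08 and −0.05 as read and −0.50 and −0.38 relative to all genes.

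Levels per length show which gene of each family had the most RNA. On the TPM scale Gapdh was the most abundant member in every group, at 6817 ± 680.2 in control MEFs, 6934 ± 855 in senescent MEFs, 6151 ± 295 at 100 μg/mL and 6502 ± 458 at 300 μg/mL, followed by Eno1 at 2631 to 3306 TPM as group means. Aldoa, Ldha and Pkm followed at group means of 1668 to 2468 TPM, in an order that differed between groups. Hif1a, at 74.2 to 269 TPM, made up 98.2% to 99.3% of the HIF alpha RNA as group means, and Epas1 the rest. Aldoa made up at least 99.9% of aldolase RNA and Slc2a1 92.9% to 95.3% of the RNA of Slc2a1 and Slc2a3.
Within families, the shares of Hk2 and Pfkp were lowest and that of Ldhb highest in treated MEFs. Hk2 was 40.0 ± 9.11% of hexokinase RNA in control MEFs, 27.3 ± 1.57% in senescent MEFs, 20.9 ± 0.290% at 100 μg/mL and 21.9 ± 2.56% at 300 μg/mL, and the control samples (33.5% to 50.4%) were above all others. Pfkp, the platelet-type phosphofructokinase, was 28.9 ± 4.25%, 26.3 ± 3.46%, 18.0 ± 0.924% and 18.2 ± 2.54% of its family, and treated samples (15.6% to 20.7%) were below all untreated ones (24.1% to 33.0%). Pfkl, the largest part of this family, follows the library deviation (r = 0.87), and its part in the shares of Pfkp and Pfkm was not tested. Pfkm was 7.29 ± 1.20% in control MEFs and 12.3 ± 1.58% in senescent MEFs, and 11.1% in treated MEFs at each dose. Ldhb was 0.605 ± 0.321% of lactate dehydrogenase RNA in control MEFs, 2.19 ± 0.353% in senescent MEFs, 2.96 ± 0.171% at 100 μg/mL and 2.90 ± 0.278% at 300 μg/mL, with treated samples (2.58% to 3.12%) above the senescent ones (1.78% to 2.43%). With 3 samples against 3, an exact permutation test cannot give a two-sided p under 0.1, and no test of the shares was run. The plot of these shares gives each sample.

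**Figure D4:**
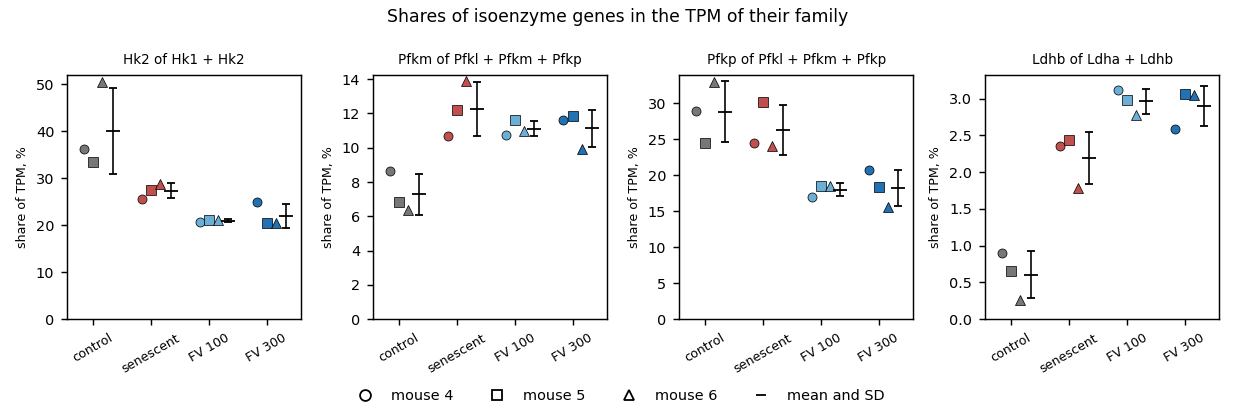
Share of an isoenzyme gene in the summed TPM of its family (y axis, %, from 0) in control MEFs, senescent MEFs and senescent MEFs at 100 or 300 μg/mL Fucoidan-FV (FV 100, FV 300), with symbols for mice 4, 5 and 6 and the mean with SD (n = 3). Hk2 declines from 40.0% to 20.9% and 21.9%, Pfkp is lowest in treated MEFs (18.0% and 18.2%), and Pfkm and Ldhb stand higher in all 3 other groups than in control MEFs. The family sum for Pfkp and Pfkm includes Pfkl, which follows the library deviation (r = 0.87).

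Neighbouring pathways gave context from lists written beside the members. Myc, which drives transcription of many glycolysis genes, fell with senescence and again with either dose: 131 ± 30.7 CPM in control MEFs, 67.2 ± 9.41 CPM in senescent MEFs, 28.8 ± 1.47 CPM at 100 μg/mL and 33.1 ± 4.26 CPM at 300 μg/mL. Its log2 fold changes were −0.96 with senescence (adjusted p = 0.00769) and −1.22 and −1.02 with treatment against senescent MEFs (adjusted p = 0.00764 and 0.0243), in 3 of 3 mice each. Trp53 (p53) fell with senescence by 0.77 on the log2 scale (adjusted p = 0.0111). The third gene of that list, Sirt6, a deacetylase that represses glycolytic genes, did not pass in any of these comparisons.
Of 7 genes of the pentose phosphate pathway, which branches from glycolysis, 1 fell with senescence (G6pdx, log2 fold change −0.82, adjusted p = 0.0472), 3 fell at 100 μg/mL and 1 at 300 μg/mL, and none rose, where 5.63%, 2.89% and 1.12% of all genes tested fell in the same order. Taldo1 (transaldolase) was at 180 ± 63.2 CPM in senescent MEFs, 66.1 ± 4.60 CPM at 100 μg/mL and 78.4 ± 6.07 CPM at 300 μg/mL (adjusted p = 0.00449 and 0.014), and Tkt and Pgls fell at 100 μg/mL by 0.65 and by 1.03 on the log2 scale (adjusted p = 0.0428 and 0.0481).
Of 38 other hypoxia targets tested, 4 rose and 2 fell with senescence, and 1 rose and 2 fell at each dose. These are 15.8%, 7.89% and 7.89% of the 38, beside 11.7%, 4.02% and 1.90% of all genes tested. With senescence, those with the smallest p were Tfrc, the transferrin receptor (log2 fold change −2.45, adjusted p = 0.000589), Rora (1.59, adjusted p = 0.0109) and Bnip3l, a mitophagy receptor (0.97, adjusted p = 0.0226). With treatment, they included Pgf, placental growth factor (−2.23 and −2.06, adjusted p = 0.00482 and 0.00991), and Ppp1r3c, a regulator of glycogen synthesis, which went from 0.458 ± 0.349 CPM in senescent MEFs to 7.96 ± 1.63 and 4.31 ± 1.95 CPM (adjusted p = 0.00719 and 0.0259). Ppp1r3c was thus at a low level in senescent MEFs. Its sequence lies 100% in 1 transcript, as in the genes that moved together with the library, and the part of that in its rise was not tested. So the called genes among the other hypoxia targets did not move one way. Of the 38, 21 were above 0 with senescence, 23 at 100 μg/mL and 26 at 300 μg/mL. Their medians were 0.18, 0.16 and 0.19 in the 3 comparisons, beside 0.07, −0.02 and 0.0003 for all genes. Vegfa, the textbook HIF target, passed in none of the 3.
Of 20 other glycolysis genes tested, Bpgm alone passed, with senescence (1.01, adjusted p = 0.03), and of 11 other oxygen sensing genes Os9 alone (0.69, adjusted p = 0.0141). Of the 9 genes for pyruvate entry to mitochondria and the 4 genes of glucose sensing by MondoA none passed in these 3 comparisons by edgeR or DESeq2, and 1 and 0 of them had an unadjusted p under 0.05 with senescence.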

How the data were processed

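RNA of WT MEFs was sequenced after rRNA-depleted, stranded library preparation (TruSeq Stranded Total RNA). Per the labels and methods, the authors trimmed reads with Trimmomatic, checked them with FastQC 0.12.1, aligned them to GRCm39 with STAR 2.7.11b and counted them with RSEM 1.3.1, and the strand setting is not given in the sources used here. The deposited files hold expected counts (not normalized), TPM and the effective length per gene and library. The deposited table of all libraries holds the same expected counts and was not used.

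Expected counts were rounded, and the libraries of control mouse 5 summed. Genes with at least 10 counts in enough samples and 15 in total (15034 of 27297 above 0) were tested by edgeR 4.0.16 (R 4.3.3), with TMM scaling, the quasi-likelihood test over all 4 groups and Benjamini-Hochberg adjustment over all genes tested. The threshold was an adjusted p of 0.05. CPM are counts scaled to a common library size after TMM, given as mean ± SD over 3 mice. The difference is a log2 fold change of the first over the second group, with its SE from the test statistic. TPM differences used log2(TPM + 0.5). Cultures of 1 mouse share their origin, and the precision rests on 3 mice a group. Alternatives were another scaling, filter, tool (DESeq2 1.42.0), set of samples, a length offset and a mouse block. An offset for the share of sequence in 1 transcript, alone and with the mouse block, was added after seeing the data. The procedure was tested on simulated data. Sequence shared between transcripts was found with 31-base words of GENCODE vM39. Promoter windows were from RefSeq.

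The mouse numbers pair the samples, since the labels give the same mouse number across groups. Deviations from group means correlated with a median r of −0.0061 over 18 same-mouse pairs, and 8 exceeded 0.1. The members and lists were chosen with earlier results of these data known. All members are named. Those past the threshold in any of the first 3 comparisons are given per sample, and of each other list up to 3 genes with the smallest adjusted p, except 1 gene that is not reported here.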

Additional observations from a re-analysis of the deposited data

How the results depend on the processing

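Slc16a3, Pfkm and Ldhb with senescence, and Slc16a3, Ldhb, Hif1a and Bnip3 in treated against control MEFs, passed in all 18 alternatives of their comparisons, and no member called in a comparison changed sign there. Values that were not called did change sign, among them those between senescent and control MEFs, where the sign was kept in 8 of 18 alternatives for Gapdh, 12 for Aldoa, 15 for Pgam1 and 17 for Pkm. For the members called in any of the first 3 comparisons, 68 values over the alternatives of these comparisons lost the call and 3 gained it. The others stayed on their side of the threshold. The differences from senescent MEFs at either dose depend on few calls near the threshold.

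With senescence 5 members were called. The count was 8 with no filter beyond 1 count in total, 3 in a fit of the compared groups alone, 3 with library 5(2) alone for control mouse 5, 8 with an offset for the single-transcript share (chosen after seeing the data), 2 by the DEG rule (absolute log2 fold change over 1), and 3 to 9 when 1 sample of the compared groups was left out. At 100 μg/mL against senescent MEFs 4 were called. The count was 1 with RLE factors, with the compared groups alone, with library 5(2) alone and by the DEG rule, 7 by DESeq2, 2 with the effective length offset, 2 with the single-transcript offset and the mouse block together, and 0 to 2 when 1 sample of the compared groups was left out. Of the other samples, which share in the estimate of the spread, leaving out 1 control sample or 300 μg/mL mouse 5 or 6 gave 1 and 300 μg/mL mouse 4 gave 4. At 300 μg/mL 1 was called. The count was 3 by DESeq2, 2 with no filter, 2 with the single-transcript offset, 0 with the compared groups alone, with libraries 5(1) and 5(2) separate, with 5(2) alone and with the effective length offset, and 0 to 1 when 1 sample of the compared groups was left out. Against control MEFs the DEG rule gave 8 at 100 and 9 at 300 μg/mL, and leaving out 1 sample of the compared groups gave 9 to 15 and 7 to 14, while without senescent mouse 6 there were 21 and 20. The cause of these changes was not tested.

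The median log2 fold change of the members at 100 μg/mL against senescent MEFs, −0.21, ran from −0.32 to 0.047 when 1 sample of the compared groups was left out. It was −0.03 without senescent mouse 4 and 0.047 without senescent mouse 5, where the median of all genes moved to between 0.14 and 0.17 as well.

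With the mouse as a replicate block, to use the pairing by mouse, 4 members were called with senescence, 1 at 100 μg/mL and 0 at 300 μg/mL against senescent MEFs, and 14 and 12 against control MEFs. The block changed no call between the doses.

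Low counts limit Aldoc, Car9, Epas1 and Ankrd37, and the library deviation limits Slc16a1, Egln1, Egln3, Ddit4, Epas1, Adm, Pfkl and Pgam1. With counts per effective length in place of TPM, isoenzyme shares moved most in control mouse 5, where Pfkl went from 68.6% to 65.3%.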

Other observations

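Hif1a and its antagonists were read side by side in these libraries. Egln1 and Egln3, whose RNA is known to rise when HIF is active, did not pass in any comparison, at SEs of 0.61 to 0.69 on the log2 scale. Both follow the library deviation (r = 0.98 and 0.92), and Egln1 ran from 4.93 to 28.1 CPM in control MEFs and from 9.85 to 36.1 CPM at 300 μg/mL. Vegfa, another target, differed from control MEFs with an adjusted p of 0.118 at 100 μg/mL and 0.46 at 300 μg/mL. Of the 8 hypoxia targets among the members, 8 were above 0 against control MEFs at each dose. Among these, Bnip3 and Ndrg1 were called higher at each dose and the rest were not, and Pdk1 was called higher as well. Ddit4 and Adm, also among the 8, follow the library deviation. Whether HIF protein followed Hif1a RNA was not measured in these files.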
